A study of Mus musculus with 12 samples.

Results

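The suppressor of cytokine signaling (SOCS) family was followed in mouse 4T1 mammary carcinoma cells, a line derived from BALB/c mice, after priming with myeloid cells. The 8 members were taken by their symbols, *Cish* and *Socs1* to *Socs7*, from 35521 genes listed, and all 8 were among the 12555 genes expressed highly enough to be tested. Parental 4T1 cells were compared with 4T1 cells primed by tumor Gr1+CD11b+ cells, here called Tu-primed (labelled 4T1_MDSC_T), and by the corresponding cells of the spleen, here called Spl-primed (4T1_MDSC_S), with 4 libraries in each group. The Gr1+ cells came by magnetic separation from mice bearing 4T1 tumors (day 21 per the labels, although the methods of the study give a later day), and a Transwell membrane with 0.4 µm pores kept them apart from the tumor cells for 48 hours. All groups share the 4T1 line, no gene was deleted, and the labels do not say whether the numbered replicates were separate cultures or whether myeloid cells of several mice were pooled. The p-values therefore measure the spread between these libraries, which may be technical. The labels also give no culture time or Transwell for the parental cells, so that exposure to myeloid cells and culture conditions cannot be told apart in comparisons with them.

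SOCS proteins are feedback inhibitors of cytokine signaling. A cytokine receptor activates Janus kinases (JAKs), which phosphorylate STAT transcription factors, and STATs in turn switch on SOCS genes. Each member carries an SH2 domain, which binds phosphorylated tyrosines, and a SOCS box, which recruits elongins and a cullin ubiquitin ligase to the bound protein. SOCS1 and SOCS3 also block JAK activity directly, and SOCS3 docks on gp130, the signaling chain shared by receptors of the IL-6 family, which includes oncostatin M (OSM).

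The libraries held between 24566183 and 31637755 assigned reads with a median of 27277534. For a gene at 0, counting error alone leaves room for 3 counts, or at most 0.122 CPM (reads of a gene relative to the TMM-normalized library size). Markers of 4T1 epithelial cells were expressed in every group, all 10 of 10 passing the expression filter, although *Krt14* averaged only 0.32 to 0.39 CPM. Their summed level had a median of 3143 CPM in parental, 2496 CPM in Spl-primed and 1986 CPM in Tu-primed libraries. Most of it came from *Krt8* and *Krt18*. As TPM, which corrects for transcript length, the sums of the groups overlapped. They were 2001 to 2351 in parental, 2133 to 2325 in Spl-primed and 1808 to 2207 in Tu-primed libraries. Against parental cells, 5 of the 10 epithelial markers were lower and 1 higher in Tu-primed cells, and 4 were lower and 2 higher in Spl-primed cells (edgeR). Of all genes tested, 28.0% were lower and 31.2% higher in Tu-primed cells, and 22.5% and 25.7% in Spl-primed cells. Of 20 granulocyte and myeloid markers, 7 were at 0 in all 12 libraries and 12 had at most 3 counts in every library. *Ptprc* (CD45), *Itgam* (CD11b) and *Ly6g* had means of at most 0.23, 0.12 and 0.04 CPM, *Ptprc* being highest in parental cells. Other markers were highest in Tu-primed cells. In parental, Spl-primed and Tu-primed cells, *Ly6c2* averaged 0.059, 0.101 and 0.488 CPM and *Lyz2* 0.041, 0.061 and 0.124 CPM. In the same order, *Ltf* averaged 1.8, 1.9 and 4.2 CPM and *S100a8* 1.8, 1.5 and 2.8 CPM. The summed level of the list lay between 127 and 132.1 CPM in parental cells, between 134.8 and 152.5 CPM in Spl-primed cells and between 154.6 and 188.9 CPM in Tu-primed cells, most of it from 1 gene. Of the 4 markers of this list that edgeR could test, 2 were higher in Tu-primed than in Spl-primed cells, or 0 with effective length offsets. DESeq2, run without the expression filter, called 4 of the 20 higher. Of 10 lymphocyte, endothelial and fibroblast markers, 6 were at 0 in all libraries, and their sum lay between 42.77 and 56.01 CPM in parental cells, between 42.71 and 67.14 CPM in Spl-primed cells and between 76.42 and 98.22 CPM in Tu-primed cells. Most of this sum was *Pdgfra*, with means of 48.95, 56.4 and 86.88 CPM in the same order. The part of these cell types in the results was not tested.

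*Socs3* and *Socs2* were higher in Tu-primed cells than in both other groups, whereas *Cish* was higher in both primed groups than in parental cells. Against Spl-primed cells the differences were 2.22-fold and 1.45-fold, and in Spl-primed cells both genes overlapped the parental libraries. *Socs1*, *Socs5* and *Socs6* passed the test in no comparison. *Socs7* was lower in Tu-primed than in parental cells by CPM but not by TPM. *Socs4* was higher in Spl-primed than in parental cells by a margin close to the threshold.

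**Figure D1:**
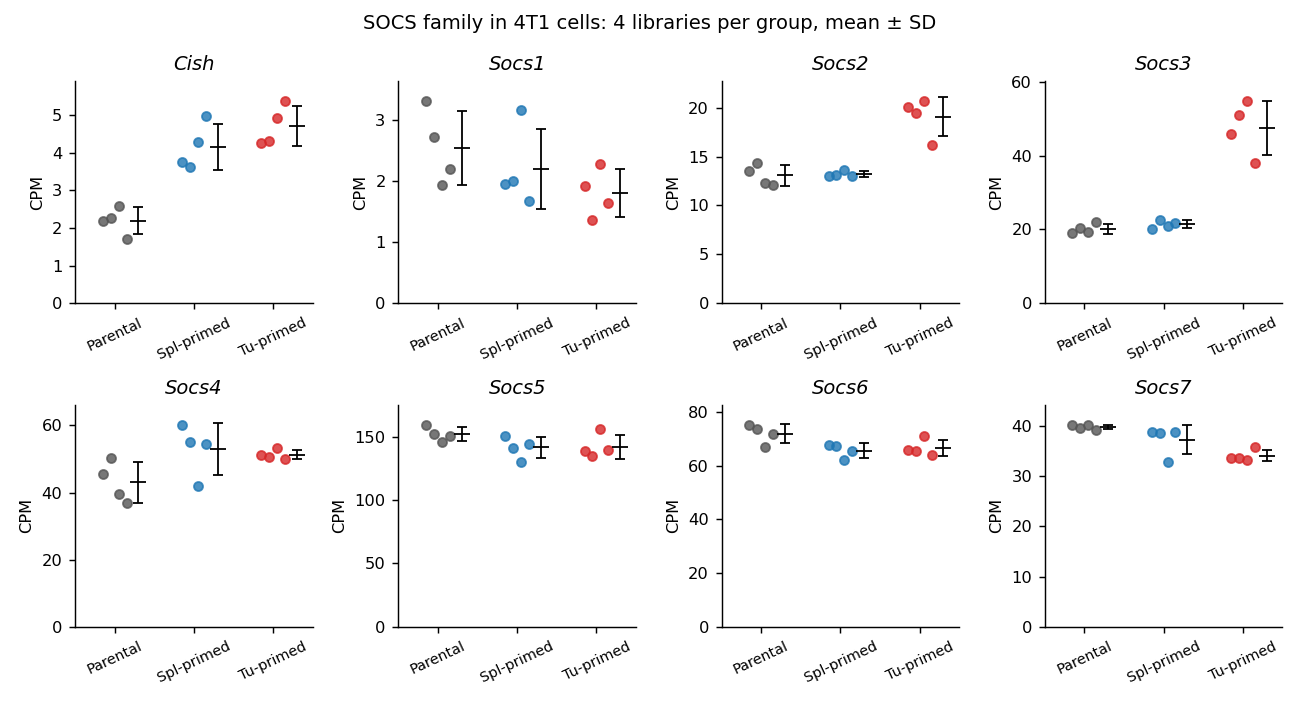
CPM (y axis, from 0) of the 8 SOCS genes in parental, Spl-primed and Tu-primed 4T1 cells (x axis), with each library as a point and the mean ± SD in black. The 4 Tu-primed libraries of *Socs3* sit between 38.0 and 54.9 CPM, above the highest other library at 22.7 CPM, and all primed libraries of *Cish* sit above 3.6 CPM, whereas the parental libraries sit between 1.72 and 2.599 CPM.

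In the comparison of Tu-primed with Spl-primed cells, which sets apart the site the myeloid cells came from, 2 of 8 members were higher and 0 were lower. Of all genes tested, 4.66% were called higher and 2.97% lower at an adjusted p under 0.05, the threshold used throughout (edgeR, quasi-likelihood F test, Benjamini-Hochberg). Both members lay above every Spl-primed library, as did 8.51% of all genes, and 0 members lay below, against 8.51% of all genes. Over the members, the median log2 fold change was 0.01, and over all genes tested it was -0.01. *Socs7* was the only further member with an unadjusted p under 0.05, and its adjusted p was 0.208 in edgeR.

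*Socs3* (ENSMUSG00000053113, GRCm38 chromosome 11 from 117966079 to 117970047, minus strand) encodes the inhibitor that acts on gp130. Its levels in the 4 Tu-primed libraries were 46.0, 51.2, 54.9 and 38.0 CPM. In Spl-primed libraries they were 20.2, 22.7, 20.95 and 21.9 CPM, and in parental libraries 19.0, 20.35, 19.4 and 22.1 CPM. Every Tu-primed library was high, the lowest of them being replicate 4, whereas the Spl-primed and parental libraries overlapped. The group means were 47.5 ± 7.33 CPM (SD, n = 4) for Tu-primed, 21.4 ± 1.07 CPM for Spl-primed and 20.2 ± 1.37 CPM for parental cells. Tu-primed cells differed from Spl-primed cells by a log2 fold change of 1.15 (standard error, SE, 0.10, 95% interval 0.94 to 1.36, edgeR quasi-likelihood test, Benjamini-Hochberg adjusted p = 1.14e-05). Against parental cells it was 1.24 in Tu-primed cells (SE 0.10, adjusted p = 3.95e-07 by the same edgeR test) and 0.09 in Spl-primed cells (interval -0.13 to 0.30, adjusted p = 0.492). The last 2 comparisons share the parental libraries and are not independent of each other. In bulk RNA, a change in the share of expressing cells and a change in the RNA per cell cannot be told apart. Under the 27 alternatives run, the *Socs3* log2 fold change against Spl-primed cells lay between 1.07 and 1.24 and was called each time.

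A stretch of the *Socs3* promoter (GRCm38.p6, from RefSeq, chr11:117969501-117969530, minus strand) is shown because it holds the only match in its window to TTCNNNGAA, the palindrome to which STAT dimers bind. The match, in capitals, begins 154 bases before the RefSeq start and lies inside the GENCODE gene span.
Socs3: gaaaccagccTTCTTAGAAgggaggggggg
Windows from 250 bases before to 50 bases after the start were searched on both strands, and 4 of 8 members (*Cish*, *Socs1*, *Socs3* and *Socs4*) had one. TTCNNNGAA was found in 2 of these 4, *Socs3* and *Cish*, and in 8.30% of 32851 promoters of the same length. A match describes the letters only and does not show that a factor binds there.

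*Socs2* (ENSMUSG00000020027, chromosome 10 from 95385362 to 95417180, minus strand), a regulator of growth hormone signaling, followed the pattern of *Socs3* with a smaller difference. Its levels were 20.1, 19.4, 20.7 and 16.2 CPM in Tu-primed libraries. They were 13.0, 13.15, 13.65 and 12.98 CPM in Spl-primed libraries and 13.5, 14.3, 12.3 and 12.1 CPM in parental libraries. The Tu-primed libraries lay above all others, replicate 4 being again the lowest of them, and the 8 other libraries overlapped. The log2 fold change of Tu-primed cells was 0.53 against Spl-primed (SE 0.08, interval 0.36 to 0.71, edgeR adjusted p = 0.000829) and 0.55 against parental cells (adjusted p = 6.83e-05). Spl-primed and parental cells differed by 0.01 (interval -0.16 to 0.19, adjusted p = 0.905), and the sign of this difference turned with the normalization. Both *Socs2* calls were lost when an absolute log2 fold change over 1 was also asked.

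The comparison of Tu-primed with parental cells called 3 of 8 members higher and 1 lower. Over all genes, edgeR called 31.2% higher and 28.0% lower here. The libraries did not overlap for 3 members above and 1 below the parental libraries, against 28.6% and 26.9% of all genes. The members had a median log2 fold change of 0.08, and all genes 0.02. Besides *Socs3* and *Socs2*, the members called were *Cish* and *Socs7*.

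In the comparison of Spl-primed with parental cells, 2 of 8 members were higher (*Cish* and *Socs4*) and 0 lower, where 25.7% of all genes were called higher and 22.5% lower. All Spl-primed libraries lay above the parental ones for 1 member, *Cish*, and below them for 1, *Socs7*, against 21.3% and 18.3% of all genes. The median log2 fold change of the members was -0.04, and that of all genes 0.02. Where edgeR called 0 members lower, DESeq2 called 1, *Socs6*, which was also the only member lower at an unadjusted p under 0.05 in edgeR.

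**Figure D2:**
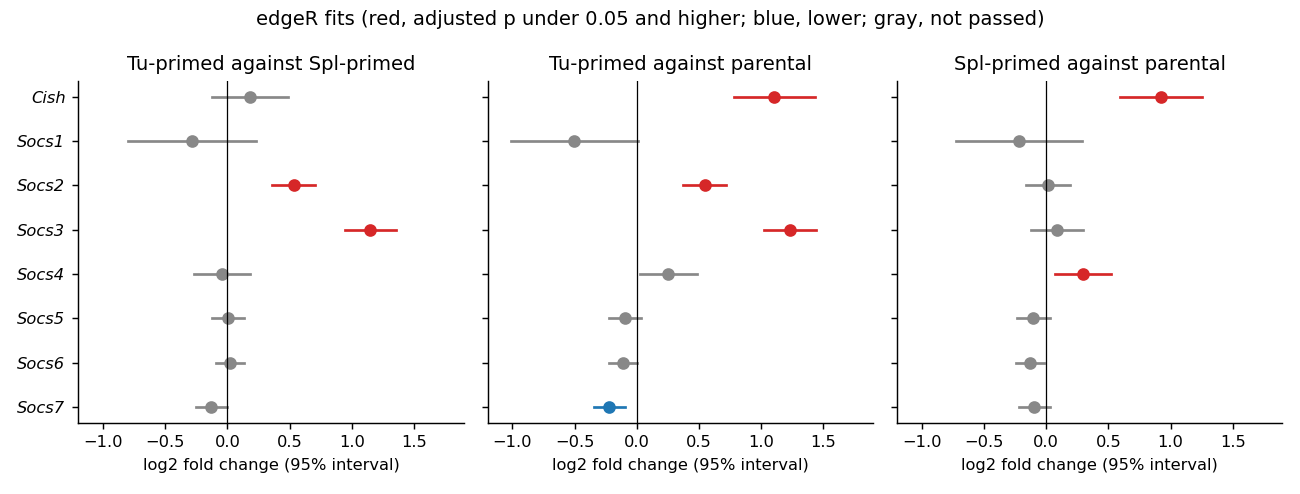
Log2 fold change (x axis, points) with its 95% interval (lines) of each SOCS gene (y axis) in the 3 comparisons, from edgeR. *Socs3* (1.15) and *Socs2* (0.53) stand above 0 in Tu-primed against Spl-primed cells, *Cish* stands above 0 against parental cells in both primed groups (1.11 and 0.92), and *Socs7* (-0.22) is the only member called lower.

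*Cish* (ENSMUSG00000032578, chromosome 9 from 107296026 to 107302784, plus strand), which encodes CIS, a classic target of STAT5, was one of the 2 members with the fewest reads, with 43 to 155 counts per library. It measured 4.26, 4.31, 4.93 and 5.38 CPM in Tu-primed libraries. The Spl-primed libraries gave 3.77, 3.63, 4.29 and 4.98 CPM, and the parental libraries 2.19, 2.27, 2.599 and 1.72 CPM. Both primed groups lay wholly above the parental group and overlapped each other. Against parental cells, the log2 fold change was 1.11 in Tu-primed (SE 0.15, edgeR adjusted p = 3.7e-05) and 0.92 in Spl-primed cells (SE 0.15, adjusted p = 3e-04). The primed groups differed by 0.18 (interval -0.13 to 0.49, adjusted p = 0.496), and this difference was -0.50 when effective transcript lengths entered the fit.

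A part of the *Cish* reads was assigned to ENSMUST00000165664, a processed transcript without a coding sequence. Its first exon, from 107296907 to 107299778 on chromosome 9, runs through most of the first intron of the coding transcript ENSMUST00000085102. The processed transcript received 7.01 ± 5.47 reads (SD, n = 4) per parental library, 43.8 ± 23.97 per Spl-primed library and 40.3 ± 7.83 per Tu-primed library. The coding transcript received 46.3 ± 11.9, 66.1 ± 14.1 and 83.8 ± 24.6 reads in the same order. With protein-coding transcripts only, *Cish* remained called in Tu-primed against parental cells (log2 fold change 0.80) but not in Spl-primed against parental cells (0.41, adjusted p = 0.21, edgeR). With effective lengths in the edgeR fit, the Tu-primed call was lost (1.13, adjusted p = 0.0683), and the Spl-primed difference rose to 1.63 (adjusted p = 0.0191).

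The *Cish* window (GRCm38.p6, from RefSeq, chr9:107296654-107296683, plus strand) is shown because it held 2 matches to TTCNNNGAA within 1 stretch, in capitals. They begin at bases 1 and 12 counted from the RefSeq start, inside the first exon that GENCODE gives to the coding transcript.
Cish: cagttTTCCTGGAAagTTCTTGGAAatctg
None of the 4 member windows held TTC and GAA at the longer spacing of 4 bases, which was present in 6.95% of all promoters.

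*Socs1* (ENSMUSG00000038037, chromosome 16 from 10782240 to 10785536, minus strand), the main brake on interferon signaling, was scarce, with 35 to 98 counts per library. The Tu-primed libraries gave 1.92, 1.36, 2.27 and 1.63 CPM, the Spl-primed libraries 1.95, 2.00, 3.16 and 1.67 CPM, and the parental libraries 3.30, 2.72, 1.93 and 2.20 CPM. All 3 groups overlapped. The log2 fold change was -0.28 in Tu-primed against Spl-primed cells (interval -0.80 to 0.23, adjusted p = 0.531, edgeR) and -0.50 against parental cells (interval -1.01 to 0.01, adjusted p = 0.0858). The latter passed the threshold when Spl-primed replicate 3 was left out of the fit (adjusted p = 0.0461, edgeR).

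The *Socs1* stretch (GRCm38.p6, from RefSeq, chr16:10785597-10785626, minus strand) is shown because it holds 2 overlapping matches to a pair of GAAA blocks separated by 2 bases, the kind of element bound by interferon regulatory factors, in capitals.
Socs1: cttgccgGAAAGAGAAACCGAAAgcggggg
These matches begin 83 and 77 bases before the start. The motif was found in 1 of the 4 member windows and in 3.44% of all promoters.

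The remaining members moved by less. *Socs4* (ENSMUSG00000048379, chromosome 14 from 47276931 to 47296102, plus strand), linked to control of the EGF receptor, measured 51.3, 50.7, 53.2 and 50.1 CPM in Tu-primed libraries, 60.2, 54.95, 41.9 and 54.55 CPM in Spl-primed libraries and 45.4, 50.3, 39.5 and 36.9 CPM in parental libraries. Its parental libraries overlapped both primed groups. The log2 fold change against parental cells was 0.30 in Spl-primed (SE 0.11, adjusted p = 0.0314, edgeR) and 0.25 in Tu-primed cells (SE 0.11, adjusted p = 0.0517). The Spl-primed call was lost in 10 of 27 alternatives and the Tu-primed difference passed in 9 of 27, so neither side of the threshold was stable.

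*Socs7* (ENSMUSG00000038485, chromosome 11 from 97362551 to 97398542, plus strand) is a member whose role in cytokine feedback is less defined. It measured 33.7, 33.7, 33.2 and 35.8 CPM in Tu-primed libraries, 38.8, 38.6, 32.9 and 38.8 CPM in Spl-primed libraries and 40.2, 39.6, 40.2 and 39.2 CPM in parental libraries. Parental libraries lay above all primed libraries, and Spl-primed replicate 3 stood apart from its own group with the lowest value of all 12. The log2 fold change was -0.22 in Tu-primed against parental cells (SE 0.06, adjusted p = 0.00451, edgeR) and -0.10 in Spl-primed against parental cells (adjusted p = 0.19). The Tu-primed call was lost when transcript lengths entered the fit (adjusted p = 0.336 in edgeR). As TPM, without TMM normalization, the means of *Socs7* ran the other way. They were 6.19 in parental, 7.77 in Spl-primed and 7.88 in Tu-primed cells, and the libraries of the groups overlapped. Without Spl-primed replicate 3, *Socs7* was also lower in Tu-primed than in Spl-primed cells (log2 fold change -0.17, adjusted p = 0.0418, edgeR).

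*Socs5* (ENSMUSG00000037104, chromosome 17) and *Socs6* (ENSMUSG00000056153), which act on receptor tyrosine kinases, were the members with the most reads. *Socs5* ranged from 134.6 to 156.0 CPM in Tu-primed, from 130.3 to 151.0 CPM in Spl-primed and from 146.0 to 159.5 CPM in parental libraries. *Socs6* ranged from 63.9 to 71.0 CPM, from 61.95 to 67.7 CPM and from 67.0 to 75.2 CPM in the same order. Both overlapped between all groups in CPM. As TPM, without TMM normalization, *Socs5* lay higher in Tu-primed (46.83 to 56.58) than in parental libraries (35.88 to 45.9), whereas *Socs6* overlapped. The log2 fold changes of *Socs5* and *Socs6* between Tu-primed and Spl-primed cells were 0.01 (interval -0.12 to 0.14) and 0.02 (interval -0.09 to 0.13). *Socs6* was -0.13 in Spl-primed against parental cells (adjusted p = 0.0519, edgeR) and -0.11 in Tu-primed against parental cells (adjusted p = 0.0795), and both differences passed the threshold with DESeq2 and with RLE normalization. With effective lengths they were larger and were called, at -0.36 in Spl-primed (adjusted p = 0.0137) and -0.39 in Tu-primed cells (adjusted p = 0.00625, edgeR).

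Levels were compared between genes as TPM, which corrects for transcript length and carries no TMM normalization here. In parental cells, the order was *Socs5* (40.1 ± 4.85 TPM, SD, n = 4), *Socs6* (28.7 ± 1.67 TPM), *Socs3* (8.80 ± 0.76 TPM), *Socs2* (7.42 ± 2.23 TPM), *Socs4* (6.55 ± 1.60 TPM), *Socs7* (6.19 ± 1.15 TPM), *Cish* (0.99 ± 0.48 TPM) and *Socs1* (0.97 ± 0.31 TPM). *Socs3*, *Socs2*, *Socs4* and *Socs7* overlapped their neighbors in this order, as did *Cish* and *Socs1*. In Spl-primed cells, *Socs5* and *Socs6* again led, followed by *Socs3* at 12.3 ± 0.99 TPM. In Tu-primed cells, *Socs3* reached 29.1 ± 4.47 TPM and overlapped *Socs6* at 30.5 ± 1.70 TPM. *Socs3* made up 19.6 ± 1.80% of the summed TPM of the family in Tu-primed cells, 10.2 ± 0.90% in Spl-primed cells and 8.86 ± 0.48% in parental cells. *Socs1* remained the lowest member in each group, although it overlapped *Cish* in parental cells.

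**Figure D3:**
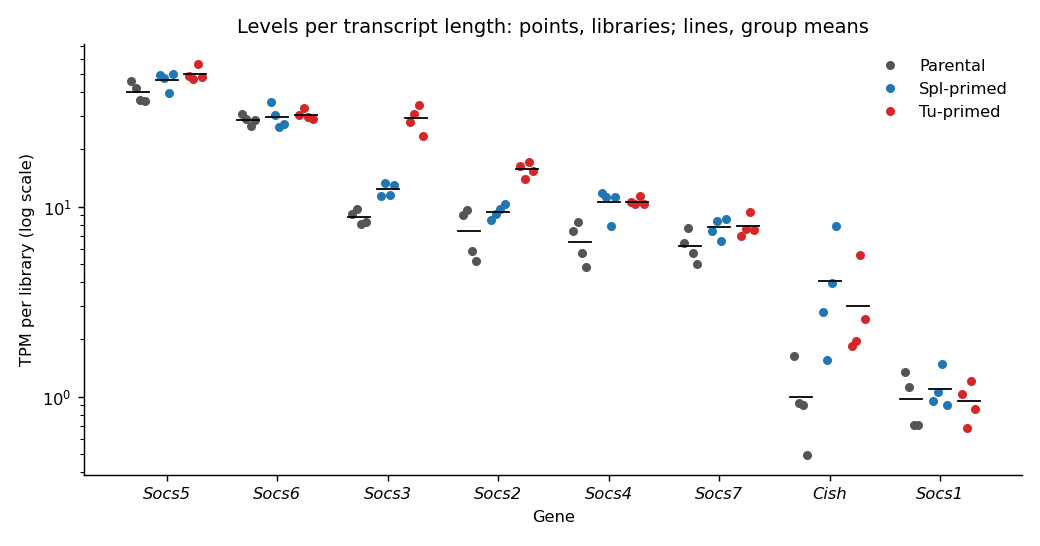
TPM (log scale, y axis) of the 8 SOCS genes (x axis), with each library as a point and the group means as lines. *Socs5* and *Socs6* lead in parental and Spl-primed cells, and in Tu-primed cells the *Socs3* libraries, between 23.7 and 34.1 TPM, reach those of *Socs6*, between 28.9 and 32.9 TPM.

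The division of *Socs2* reads among its transcripts is given as a description. The coding transcripts ENSMUST00000020215 (upstream start) and ENSMUST00000172070 (downstream start) share their last 2 exons and begin with different first exons. These lie at 95416618 to 95416857 and at 95415314 to 95415484 on chromosome 10, so that the annotated starts are 1373 bases apart. The upstream-start transcript took 84.6, 58.9, 84.0 and 77.7% of the *Socs2* reads in parental libraries. Its share was 13.5, 46.2, 19.2 and 38.2% in Spl-primed and 44.2, 33.1, 28.2 and 46.6% in Tu-primed libraries. Parental libraries were above all primed libraries, and the primed groups overlapped. The difference in means was -47.0 percentage points in Spl-primed and -38.3 in Tu-primed against parental cells. Each had an exact two-sided permutation p of 0.0286, the smallest that 4 against 4 libraries allow, and an adjusted p of 0.12 over 21 tests. The downstream-start transcript took the smaller share in parental cells, with 0 to 23.3% in parental, 35.9 to 80.0% in Spl-primed and 34.8 to 55.5% in Tu-primed libraries, at the same exact p and adjusted p. These transcripts were chosen after their values were seen, and the shares are estimates that rest on reads reaching a short first exon.

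**Figure D4:**
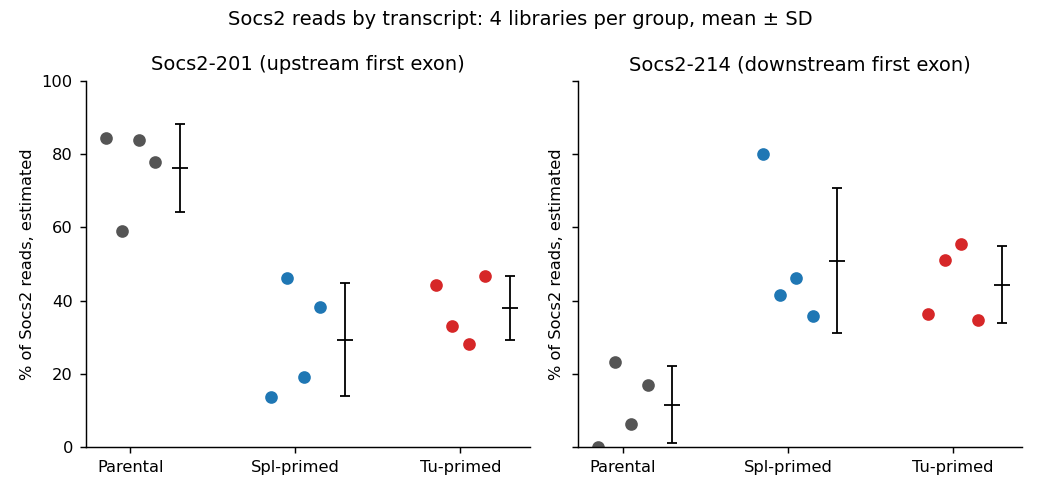
Estimated share of *Socs2* reads (%, y axis) on the upstream-start (left) and downstream-start (right) transcripts in parental, Spl-primed and Tu-primed libraries (x axis), with each library as a point and the mean ± SD in black. Parental libraries lie between 58.9 and 84.6% for the upstream start and between 0 and 23.3% for the downstream start, apart from all primed libraries in both panels.

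The share of reads on protein-coding transcripts was above 86% in every library for the 5 members with at least 100 reads and a transcript that is not protein-coding. The *Socs6* share was 97.3 ± 0.13% in Tu-primed, 97.7 ± 0.11% in Spl-primed and 98.0 ± 0.47% in parental libraries. Tu-primed libraries lay below both other groups (exact two-sided permutation p = 0.0286 each), but with adjustment over 15 tests the value was 0.214. The lowest adjusted p of the other tests in this family was 0.286 (exact permutation tests).

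The genes whose pattern over the 12 libraries was most like *Socs3*, by the root mean square difference of centered log2 CPM among 12547 genes, were *Ackr3* (0.12), *Vwa5a* (0.13) and *Stat3* (0.14). For *Socs2* they were *Gcnt2* (0.05), *Nek6* (0.07) and *Glrx* (0.08). These genes were picked as the closest of all those searched, so small differences follow from the choice and were not tested. Over the same libraries, the SD of log2 CPM was 0.60 for *Socs3* and 0.28 for *Socs2*.

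Other genes of the pathway were read as lists from the same fit, beside the 4.66% of all genes higher and 2.97% lower in Tu-primed than in Spl-primed cells. Among receptors of the IL-6 family, 1 of 5 tested was higher. *Osmr*, the OSM receptor chain, had 69.7 ± 13.9 CPM (SD, n = 4) in Tu-primed, 16.9 ± 2.34 CPM in Spl-primed and 12.3 ± 0.42 CPM in parental cells, a log2 fold change of 2.04 between the primed groups (adjusted p = 2.27e-06, edgeR). *Il6st*, which encodes gp130, and *Il6ra* each differed by 0.01, *Lifr* by 0.45 (adjusted p = 0.17) and *Il11ra1* by -0.24 (adjusted p = 0.297). Transcripts of the ligands *Osm* and *Il6* were near 0 in the tumor cells, with at most 2 and 9 counts in any library. Of the 5 ligands tested, *Csf3* was higher (0.54), while all 5 (*Lif*, *Il11*, *Clcf1*, *Csf2* and *Csf3*) were higher in both primed groups than in parental cells. The share of all genes higher than in parental cells was 31.2% in Tu-primed and 25.7% in Spl-primed cells.

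Among JAKs, *Jak3* was higher in Tu-primed than in Spl-primed cells (0.99, adjusted p = 8.83e-05, edgeR), whereas *Jak1* (0.02), *Jak2* (0.28) and *Tyk2* (-0.32) did not pass. With DESeq2, 2 of the 4 JAKs were higher and 1 lower. Among the STATs, *Stat2* (1.93) and *Stat3* (1.116, edgeR adjusted p = 9.73e-06) were higher. *Stat5a* (0.03), *Stat5b* (0.01) and *Stat6* (-0.03), which relay growth hormone, prolactin and interleukin signals, did not pass. Of 5 interferon and IL-10 family receptors, *Ifnar2* was higher (0.31, adjusted p = 0.00585) and *Ifnar1* (0.16), *Ifngr1* (-0.10), *Ifngr2* (0.08) and *Il10rb* (0.19) did not pass. Among 7 receptors listed as the STAT5 and STAT6 class, 4 were higher, with *Csf2rb* (1.98, at less than 1 CPM), *Il13ra1* (1.15) and *Lepr* (0.85) the largest. *Lepr*, the leptin receptor, signals mainly through STAT3. Of 5 receptor tyrosine kinases, *Egfr* was higher (0.45).

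Genes known to respond to STATs were counted next. Most are induced, but the STAT5 list includes *Bcl6*, which STAT5 represses. Of 13 STAT3-responsive genes tested other than *Socs3*, 7 were higher and 0 lower in Tu-primed than in Spl-primed cells, led by *Saa3* (2.33), *Cebpd* (1.77) and *Lcn2* (1.09), with a list median of 0.36. With effective lengths 5 were higher, and with DESeq2 1 was lower. Of 5 STAT5-responsive genes other than *Cish* and *Socs2*, 1 was higher, *Xdh* (0.93), with a median of 0.09.

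**Figure D5:**
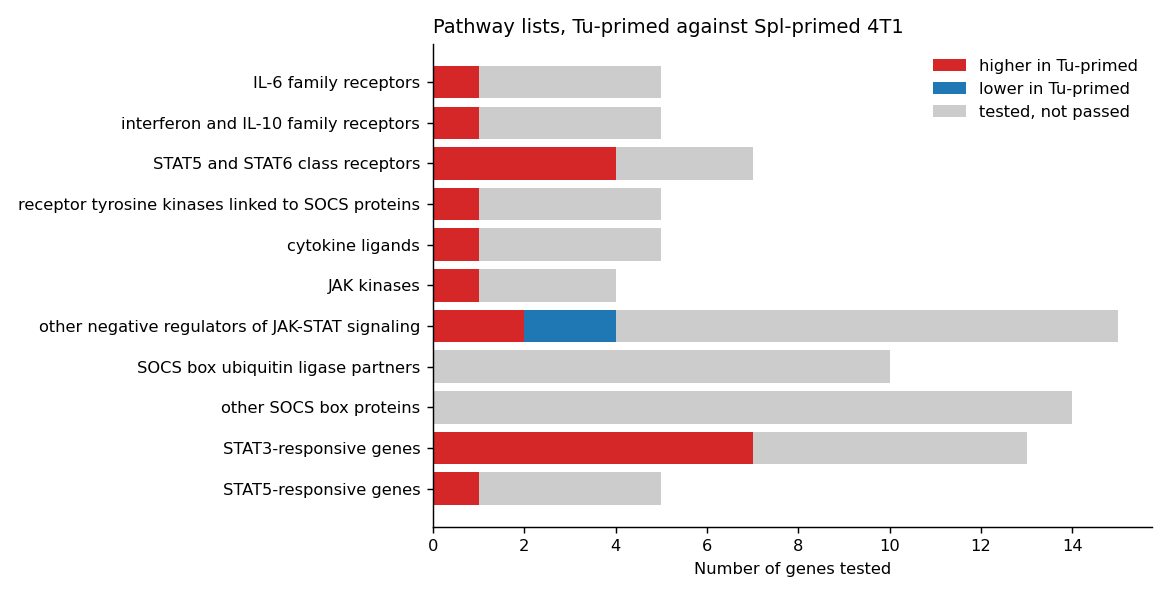
Number of genes tested (x axis) in each of the pathway lists shown (y axis) that were higher (red), lower (blue) or did not pass (gray) in Tu-primed against Spl-primed cells, edgeR at an adjusted p under 0.05. The list of other negative regulators of JAK-STAT signaling includes *Dusp*, *Spred* and *Spry* genes of MAP kinase signaling. Of the lists shown, STAT3-responsive genes have the most genes higher by count (7 of 13), and STAT5 and STAT6 class receptors have a larger share (4 of 7). The 10 SOCS box ligase partners and 14 other SOCS box proteins have 0 called.

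Of 10 partners in the SOCS box ubiquitin ligase, 0 were called, with a median of -0.01, and of 14 other SOCS box proteins, 0 were called, with a median of -0.06. Against parental cells, 3 of the 10 ligase partners were lower in both primed groups, a share near that of all genes (28.0% in Tu-primed and 22.5% in Spl-primed cells). They were *Elob* (-0.60 in Tu-primed and -0.46 in Spl-primed), *Nedd8* (-0.29 and -0.22) and *Ube2m* (-0.45 and -0.32), and *Cul5*, the cullin of the complex, was higher (0.41 and 0.32). The *Cul5* call in Spl-primed cells was lost when transcript lengths entered the edgeR fit. Of the 14 other SOCS box proteins, 4 were higher than in parental cells in each primed group, beside 31.2% of all genes in Tu-primed and 25.7% in Spl-primed cells, and 2 were lower in Tu-primed and 1 in Spl-primed cells. The count higher in Spl-primed cells was 2 with DESeq2, RLE normalization and length offsets. Of 15 genes listed as other negative regulators, 2 were higher in Tu-primed than in Spl-primed cells and 2 lower. The list joins regulators of the JAK-STAT pathway with *Dusp*, *Spred* and *Spry* genes, which restrain MAP kinase signaling. *Usp18*, which restrains type I interferon signaling, had the largest difference (4.84, SE 0.62, adjusted p = 0.000229, edgeR), and *Dusp6* was 0.37 higher. The *Usp18* difference rests on a mean of 0.43 CPM (7 to 19 counts) in Spl-primed cells. The Tu-primed libraries were uneven, from 2.12 to 22.85 CPM (61 to 644 counts). *Sh2b3* (-0.44) and *Spry1* (-0.41) were lower, and the PIAS and PTPN genes in the list did not pass.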

How the data were processed

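Total RNA of 4T1 cells was sequenced with a stranded kit, 4 libraries for each of 3 groups. Per the labels, the submitters' processing notes name FastQC, Trimmomatic 0.39, Salmon 1.4.0 and GRCm38; the annotation release is not given in the sources used here. The authors deposited an estimated count of reads per Ensembl transcript, not normalized, beside TPM and the effective length of each transcript. The authors also deposited a normalized signal per gene. It matched DESeq2 with transcript lengths to within 1% for 99.1% of values and served as an alternative.

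Counts were summed per gene with GENCODE M21 and rounded. Of 117081 transcripts, 116021 were in that annotation, the others holding 0.326 to 0.419% of reads. The authors' quantification divides reads between transcripts that share sequence, so transcript shares carry that uncertainty, and the 2 transcripts of *Socs1* were left apart because all reads fell on 1 of them in 9 of 12 libraries. In R 4.3.3, edgeR 4.0.16 fitted all 12 libraries together by group (filterByExpr, TMM, quasi-likelihood test, Benjamini-Hochberg over 12555 genes, threshold 0.05). Each standard error was obtained as the absolute fold change on the log2 scale over the square root of its F statistic, and log2 CPM had a prior count of 2. limma 3.58.1 and DESeq2 1.42.0 served as alternatives, and shares were tested in Python 3.11.15 with scipy 1.17.1. On simulated counts for Tu-primed against parental cells, with 12449 genes tested, edgeR found 176 of 199 genes changed by 1 on the log2 scale and called 8 unchanged genes. The simulation changed few genes, evenly up and down, whereas 31.2% of genes were called higher and 28.0% lower in the data. It also held no smaller change, so it does not show how the fit performs in that setting.

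All 8 members were named, with the called genes of largest change in each pathway list (at most 3), the JAKs, STATs and their receptors (1 gene and 1 list are not reported here), and the 3 genes most like each member called between the primed groups. *Elob*, *Nedd8*, *Ube2m* and *Cul5*, and the transcripts of *Socs2* and *Cish*, were named after their values were seen. So were the markers *Krt8*, *Krt18*, *Ly6c2*, *Lyz2*, *Ltf* and *S100a8*. The members, lists and rules were chosen with earlier results of these data known. Alternatives were other normalizations, tests, filters, thresholds, lengths, thinning, a replicate term and leaving out each library.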

Additional observations from a re-analysis of the deposited data

Results flagged for a closer look

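*Socs7* in Spl-primed replicate 3 lay apart from its group: at 32.9 CPM against 38.6 to 38.8 CPM in the other libraries, its gap made up 0.97 of the group's range. This was the only such sample among 24 groups of 4 libraries, where chance gives about 1 in 20, and the fit without it is given beside the *Socs7* values.

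The effects of tumor and spleen myeloid cells differed for 2 members by edgeR's quasi-likelihood test of the difference itself. With shared parental libraries, this is the comparison of Tu-primed with Spl-primed cells given above, and it adds no further evidence. The difference on the log2 scale was 1.15 for *Socs3* (higher in 4 of 4 Tu-primed libraries than in any Spl-primed library) and 0.53 for *Socs2* (4 of 4).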

How the results depend on the processing

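*Socs3* was called in all 27 alternatives against Spl-primed and parental cells, and *Socs2* in 26 of 27. Asking for an absolute log2 fold change over 1 left 1 member higher against Spl-primed cells, 0 lower in Tu-primed against parental cells, and 0 higher in Spl-primed against parental cells. Members lower in Tu-primed against parental cells numbered 2 with DESeq2 and RLE. Members higher in Spl-primed against parental cells numbered 1 with edgeR length offsets, DESeq2 lengths, only the 8 libraries, coding transcripts and an adjusted p under 0.01; members lower numbered 1 with DESeq2, RLE and edgeR length offsets and 2 with DESeq2 lengths. Leaving out each library gave 0 to 1 members lower between the primed groups, 1 to 3 lower in Tu-primed against parental cells, and 1 to 2 higher and 0 to 1 lower in Spl-primed against parental cells. Signs turned only in differences not called. Between the primed groups, *Cish* was -0.496 and -0.497 with length offsets in edgeR and DESeq2, and *Socs6* -0.0315 and -0.0222. *Socs2* in Spl-primed against parental cells was -0.0144 with DESeq2, -0.0112 with RLE, -0.0331 and -0.0579 with length offsets and -0.0098 without a filter. Over left-out libraries, log2 differences ran from -0.123 to 0.0246 (*Socs4*), -0.0417 to 0.0378 (*Socs5*) and -0.0132 to 0.0379 (*Socs6*) between the primed groups, and -0.022 to 0.0583 (*Socs2*) in Spl-primed against parental cells. Coding shares ran from -1.15 to 0.76 and -0.20 to 2.08 points (*Socs2*, Tu-primed and Spl-primed against parental), -0.045 to 0.066 (*Socs3*, Spl-primed) and -0.049 to 0.11 (*Socs5*, Tu-primed), and the downstream-start *Socs2* transcript from -11.5 to 3.19 between the primed groups. The causes were not tested. *Socs1* and *Cish* had the fewest reads and the largest standard errors of the members.

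The labels do not say that a replicate number marks a shared culture or day, and the numbers were not taken as pairs. Correlations of same-numbered libraries ran from -0.164 to 0.0164 between the primed groups, from 0.0839 to 0.148 in Tu-primed against parental cells and from -0.156 to 0.0721 in Spl-primed against parental cells, and 0, 6 and 1 of 8 libraries correlated best with their own number. Every pair was therefore positive in Tu-primed against parental cells, though not over 0.1 in each. With a replicate block, genes called went from 958 to 744 between the primed groups, from 7434 to 7194 and from 6053 to 5779 against parental cells, and *Socs3* was 1.14 between the primed groups. Members higher numbered 2, 4 and 2, with *Socs4* added in Tu-primed against parental cells (adjusted p = 0.0358, edgeR).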
